A study of Mus musculus with 12 samples.

Results

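Integrins, cadherins, laminins and collagens are the main receptors, cell-to-cell adhesion molecules and matrix proteins through which a cell holds on to its neighbours and to basement membranes. The 109 members described here were the rows of the count table whose gene symbol begins as an integrin alpha or beta, a numbered cadherin, a laminin chain or a collagen chain, out of 24562 genes in all. They comprised 18 integrin alpha genes, 8 integrin beta genes, 23 cadherins, 11 laminin chains, 44 collagen chains and 5 genes that carry a family name but encode a binding protein or a like protein (Itgb1bp1, Itgb1bp2, Itgb2l, Itgb3bp and Col4a3bp). RNA-Seq had been done on 12 pools of 18 to 45 oocytes from CD-1 mice, an outbred strain, across the pubertal transition. There were 3 pools in each of 4 cohorts, namely postnatal day (PND) 13, PND 40 and, between them, the PND 16 small and the PND 16 large mice, which were divided by body weight. All mice were untreated, and each pool combined oocytes of a cohort. The study groups PND 16 large and PND 40 as meiotically competent and PND 13 and PND 16 small as non-competent. It scored competence as the share of oocytes that matured to metaphase II in culture. Both PND 16 cohorts have the same age, so the competence groups are not divided by age alone.

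Integrins are pairs of an alpha and a beta chain that bind laminins, collagens or fibronectin outside the cell and connect them to actin inside it. Classical cadherins bind the same cadherin on a neighbouring cell, and E-cadherin (Cdh1) and N-cadherin (Cdh2) both occur where an oocyte touches its granulosa cells. A laminin is a trimer of 1 alpha, 1 beta and 1 gamma chain, and together with the sheet-forming collagen IV it makes the basement membrane that surrounds each follicle, whereas fibrillar collagens such as type I are typical of stroma.

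Pools had total counts of 17671193 to 27418358, and the members together took between 0.527% and 0.664% of it. Levels are given as CPM, counts relative to the pool's total after TMM scaling between pools, and levels of different genes are compared only as CPM per kb of exon. The oocyte marker list (12 genes) summed to 15708 to 20236 CPM in every pool, with Gdf9, an oocyte growth factor, between 3183 and 4073 CPM. The pools were not equal in RNA of other cells. A list of 18 granulosa and cumulus markers summed to 769 CPM in PND 13 replicate 1, 891 CPM in PND 13 replicate 3 and 942 CPM in PND 16 small replicate 2, against 403 to 549.9 CPM in the other 9 pools. Inha, the inhibin alpha chain of granulosa cells, was at 97.1 to 143 CPM in those 3 pools and at 2.34 to 20.7 CPM elsewhere. The sum in the other 9 pools was carried largely by Serpine2, at 224 to 331 CPM. Serpine2 was at 199 to 237 CPM in the 3 pools, and Kitl and Cyp19a1 did not set them apart either. The sum in the other 9 pools is therefore not a measure of granulosa RNA. Of the other marker lists, blood and immune genes summed to at most 3.04 CPM and surface epithelium genes to at most 2.91 CPM. Tcf21, Emcn, Hba-a1 and Hbb-bs were the listed markers at 0 in every pool. Others of the same lists were detected, such as Ptch1 at 2.39 to 28.4 CPM, Kdr at 1.23 to 9.22 CPM and Cd68 at 0.518 to 1.22 CPM. The endothelium list summed to 86.9 to 108 CPM, carried by Pecam1 and Tek, while the vascular cadherin Cdh5 stayed at or below 0.143 CPM, and the theca and stroma list summed to 175 to 282 CPM, carried by Myh11. In pooled samples such as these, fewer cells of a type and less RNA per cell cannot be told apart.

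Most of the expression lay in a few members of each family. Over the 12 pools 11 members had a mean of at least 100 CPM, 23 lay between 10 and 100 CPM, 28 between 1 and 10 CPM and 47 below 1 CPM, of which Itgad was at 0 in all pools. Per kb of exon the laminin beta 1 chain Lamb1 stood far above every other member, with a mean level of 432 CPM per kb. Its 3 pools were at 2257, 2403 and 2137 CPM at PND 13, at 2402, 2171 and 2355 CPM in PND 16 small, at 2740.2, 2522 and 2446 CPM in PND 16 large and at 2846, 2807 and 3215 CPM at PND 40. Lamb1 made up 81.3% to 88.1% of the summed laminin level per kb in each pool. E-cadherin followed with a mean of 119 CPM per kb, which was 60.1% to 75.6% of the summed cadherin level. Itga6, the alpha chain of laminin-binding integrins, had a mean of 93.4 CPM per kb, which was 67.1% to 79.0% of the summed integrin alpha level. The first beta and gamma partners were lower: Itgb1, the beta chain that pairs with most alpha chains, had a mean of 33.0 CPM per kb, and Lamc1, the usual gamma chain of laminins, had 16.3 CPM per kb. The Lamb1 level per kb was therefore 13.2 to 47.6 times the Lamc1 level in the same pool. Among collagens the 3 chains Col6a4, Col6a5 and Col6a6, which replace one another in the trimer of the beaded collagen VI, together held 43.8% to 49.97% of the summed level per kb, with Col6a6 alone at a mean of 25.6 CPM per kb. The other collagen VI chains were lower, with means of 4.40 CPM per kb for Col6a3, 0.350 for Col6a1 and 0.0874 for Col6a2. These are RNA levels of single chains and not amounts of a trimer.

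**Figure D1:**
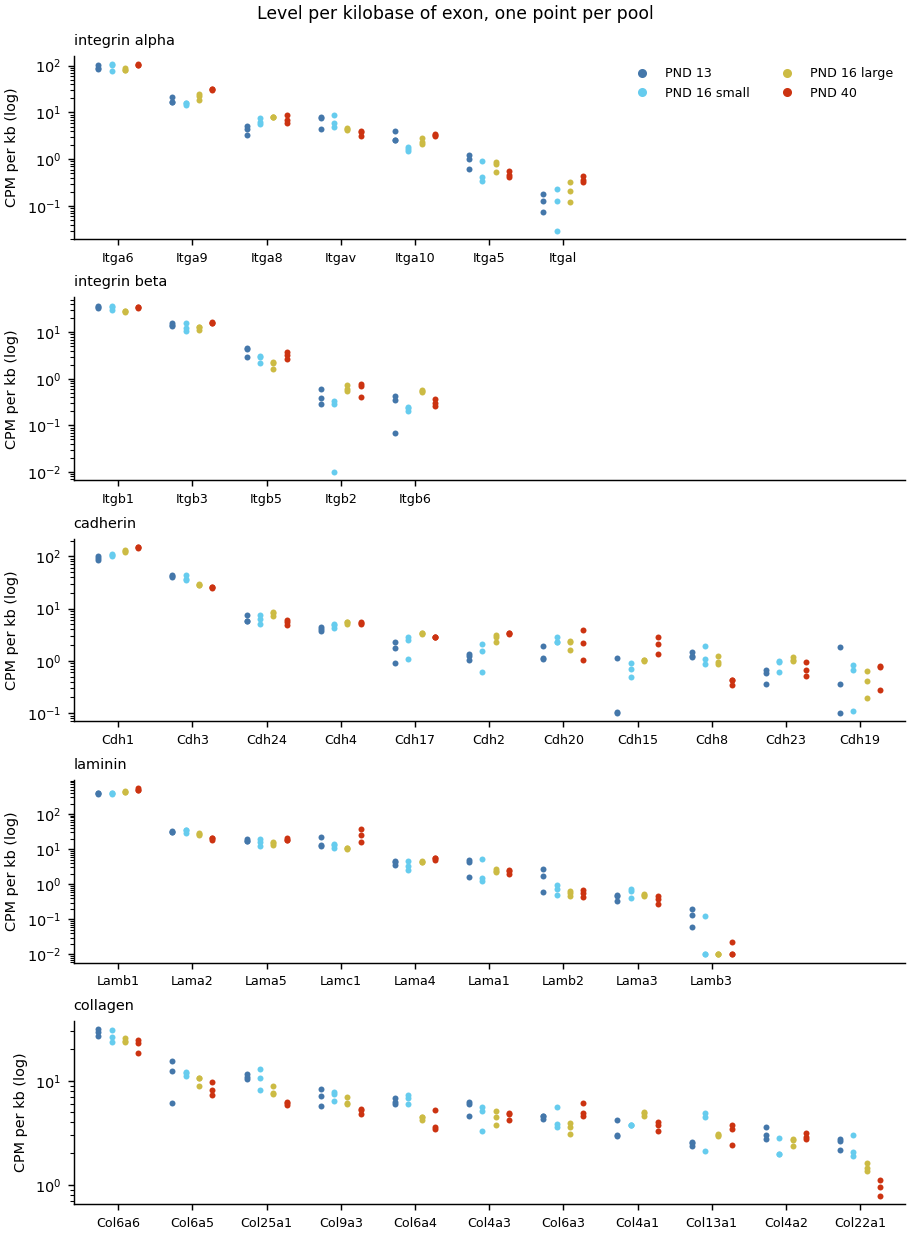
Level per kb of exon (CPM per kb, log axis) of up to 11 members of each family, those with the highest mean CPM among the members named in the text; each point is 1 pool, coloured by cohort, and values under 0.01 CPM per kb are drawn at 0.01. Lamb1, Cdh1 and Itga6 sit at the top of their families in every pool, with mean levels of 432, 119 and 93.4 CPM per kb.

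The windows around the start sites of 3 genes are shown, Lamb1 because it is the most abundant member, and a collagen IV gene from each of the 2 overlapping head-to-head pairs described further on. RefSeq has a window of 250 bases before to 50 after the start site for 74 of the 109 members (build GRCm38.p6). The Lamb1 window is chr12:31265043-31265342 on the plus strand, the Col4a2 window is chr8:11312555-11312854 on the plus strand, and the Col4a4 window is chr1:82586800-82587099 on the minus strand. Capitals mark matches on either strand to the GC box letters GGGCGG and the CCAAT box letters CCAAT; the TATA box letters TATAAA were also searched and are in none of the 3 windows, and matches of different motifs do not overlap.
Lamb1: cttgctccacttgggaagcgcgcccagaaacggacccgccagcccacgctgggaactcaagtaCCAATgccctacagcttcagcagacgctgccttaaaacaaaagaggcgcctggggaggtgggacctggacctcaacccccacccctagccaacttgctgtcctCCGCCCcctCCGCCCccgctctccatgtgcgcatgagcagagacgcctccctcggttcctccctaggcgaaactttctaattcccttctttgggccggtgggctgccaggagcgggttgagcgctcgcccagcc
Col4a2: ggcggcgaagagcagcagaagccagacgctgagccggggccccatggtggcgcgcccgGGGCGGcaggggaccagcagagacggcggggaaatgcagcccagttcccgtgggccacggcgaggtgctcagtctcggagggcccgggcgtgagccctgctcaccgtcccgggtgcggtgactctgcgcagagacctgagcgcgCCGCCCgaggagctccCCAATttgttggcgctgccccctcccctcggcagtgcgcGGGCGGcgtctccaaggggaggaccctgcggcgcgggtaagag
Col4a4: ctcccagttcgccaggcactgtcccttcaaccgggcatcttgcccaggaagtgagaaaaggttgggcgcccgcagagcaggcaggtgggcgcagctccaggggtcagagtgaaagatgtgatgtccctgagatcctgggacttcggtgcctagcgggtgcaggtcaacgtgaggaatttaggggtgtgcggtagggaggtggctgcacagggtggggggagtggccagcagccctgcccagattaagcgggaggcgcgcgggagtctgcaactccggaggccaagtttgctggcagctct
The Lamb1 window holds 2 GC boxes and 1 CCAAT box, the Col4a2 window holds 3 GC boxes and 1 CCAAT box, and the Col4a4 window holds neither. Of 32851 RefSeq windows of this length, 35.7% hold GGGCGG, 37.4% hold CCAAT and 13.6% hold TATAAA, so the matches are a description of these windows and not evidence of binding.

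Members were tested within the fit of the whole table, by the quasi-likelihood test of edgeR. The p-values were adjusted (Benjamini-Hochberg) over the 13943 genes that passed the filter on low counts, and 86 of these were members. A gene was called at an adjusted p of at most 0.05 and a change of at least 1.5-fold. In competent vs. non-competent oocytes 17 of the 86 members tested were called, 6 higher and 11 lower, which is 19.8% beside 15.0% of all genes tested. Among all genes 3.78% were called higher and 11.2% lower. The 6 pools of one group did not overlap the 6 of the other for 8 members, or 9.3%, beside 14.7% of all genes. The median log2 fold change of the members was -0.014, against -0.0046 for all genes tested. In PND 40 vs. PND 13, the widest step in age, 18 of 86 members were called, 8 higher and 10 lower, which is 20.9% beside 18.9% of all genes, with 6.31% of all genes higher and 12.6% lower. The shares of members called were thus near those of all genes, and the account that follows is of which members moved. These 2 comparisons share the PND 13 and PND 40 pools and are not independent of each other. By family, 8 of the 18 cadherins tested were called at PND 40 vs. PND 13, 6 higher and 2 lower, and 5 in competent vs. non-competent oocytes, 3 higher and 2 lower. All collagens and laminins called in these comparisons were lower, whereas the integrin alpha chains went both ways. The called members kept these directions under each scaling of the counts.

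**Figure D2:**
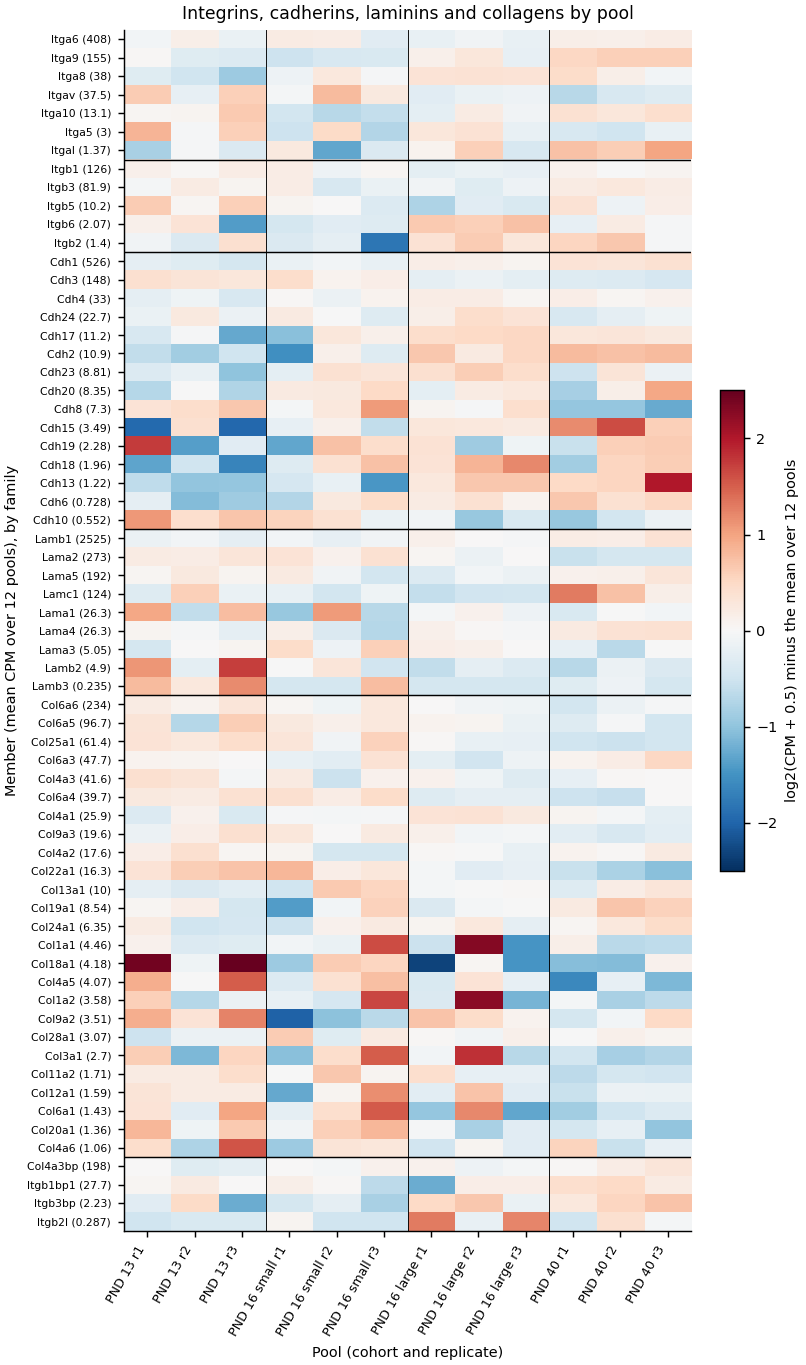
Colour gives log2(CPM + 0.5) of each named member minus its mean over the 12 pools, limited to 2.5 in either direction; rows are members ordered by family and mean CPM (in brackets), columns are pools ordered by cohort. Cdh1, Cdh2 and Cdh13 are redder in each of the 6 competent pools than in any of the 6 non-competent pools, while Cdh3, Col22a1 and Col6a4 are bluer, and Col1a1, Col1a2 and Col3a1 are red in PND 16 small replicate 3 and PND 16 large replicate 2.

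E-cadherin and P-cadherin moved in opposite directions from PND 13 to PND 40. E-cadherin (Cdh1; RefSeq chr8:106603350-106670247, plus strand) was at 442, 418 and 382 CPM at PND 13, at 462, 494 and 454 CPM in PND 16 small, at 581, 567 and 544 CPM in PND 16 large and at 659, 642 and 672 CPM at PND 40. Every competent pool was above every non-competent pool, and the 3 PND 40 pools were above all others. Cdh1 rose at PND 40 vs. PND 13 by 0.67 on the log2 scale (SE 0.07, adjusted p = 3.65e-05), and in competent vs. non-competent oocytes its log2 fold change was 0.47 (SE 0.07, adjusted p = 0.00042), under the 1.5-fold criterion. P-cadherin (Cdh3; chr8:106510852-106556911, plus strand), a close relative encoded on the same strand of chromosome 8, was at 192, 180.3 and 177 CPM at PND 13, at 197, 153 and 161 CPM in PND 16 small, at 123, 130.1 and 122 CPM in PND 16 large and at 115, 113 and 109 CPM at PND 40. Here every competent pool was below every non-competent pool. Cdh3 fell by 0.70 on the log2 scale at PND 40 vs. PND 13 (SE 0.09, adjusted p = 8.55e-05), and in competent vs. non-competent oocytes its log2 fold change was -0.57 (SE 0.07, adjusted p = 8.27e-05), again under 1.5-fold. The ratio of Cdh1 to Cdh3 per kb was 2.14 to 3.19 in the non-competent pools and 4.31 to 6.12 in the competent pools, with a mean of 2.24 ± 0.0841 at PND 13 and 5.79 ± 0.286 at PND 40 (SD, n = 3).

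N-cadherin (Cdh2) was higher in every competent than in any non-competent pool. It was at 6.11, 5.04 and 6.67 CPM at PND 13, at 3.01, 10.6 and 7.59 CPM in PND 16 small, at 15.6, 11.4 and 14.1 CPM in PND 16 large and at 17.0, 16.2 and 17.1 CPM at PND 40. Cdh2 rose in competent vs. non-competent oocytes by 1.23 (log2, SE 0.23, adjusted p = 0.00124) and at PND 40 vs. PND 13 by 1.5 (SE 0.32, adjusted p = 0.00373). T-cadherin (Cdh13), which is anchored to the membrane by lipid and has no cytoplasmic tail, was at 0 to 0.711 CPM in the non-competent and at 1.15 to 5.03 CPM in the competent pools. It rose by 2.61 in competent vs. non-competent oocytes (log2, SE 0.59, adjusted p = 0.00409). At PND 40 vs. PND 13 it rose by 3.35 (log2, SE 0.83, adjusted p = 0.00758), a call that was lost without PND 40 replicate 3, with a log2 fold change of 2.5. The intestinal type cadherin Cdh17 was at 4.01 to 12.9 CPM in non-competent and 12.5 to 15.2 CPM in competent pools, which overlapped, and rose by 0.70 (log2, SE 0.24, adjusted p = 0.042).

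Cdh15, Cdh18 and Cdh6 were called higher at PND 40 vs. PND 13 from low levels. Cdh15, the muscle cadherin, was at 0.334, 3.75 and 0.327 CPM at PND 13 and at 6.78, 9.44 and 4.37 CPM at PND 40 (log2 2.20, SE 0.74, adjusted p = 0.0402). Its low values at PND 13 lay in replicates 1 and 3, which are among the 3 pools with high granulosa markers. In PND 16 small replicate 2, the other such pool, Cdh15 was at 2.99 CPM, the highest of that cohort. Without the 3 pools, which leaves 1 PND 13 pool, its log2 fold change was 0.87. Cdh18 was at 0.334, 0.977 and 0.164 CPM at PND 13 and 0.643, 2.55 and 2.72 CPM at PND 40 (log2 1.98, SE 0.66, adjusted p = 0.0345), and its log2 fold change was 1.02 without the 3 pools (adjusted p = 0.456). Cdh6 was at 0.0391 to 0.478 CPM at PND 13 and at 0.996 to 1.33 CPM at PND 40 (log2 2.45, SE 0.79, adjusted p = 0.0303), which rests on 14 counts over the PND 13 pools. All 3 calls were lost on leaving out single pools: for Cdh15 without PND 13 replicate 1 or 3 or any PND 40 pool (log2 1.73 to 4.33), for Cdh18 without PND 13 replicate 1 or 3 or PND 40 replicate 2 or 3 (log2 1.57 to 2.96), and for Cdh6 without PND 13 replicate 2 or 3 or any PND 40 pool (log2 1.92 to 3.76).

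Cdh8 and Cdh10, type II cadherins of the nervous system, were also lower. Cdh8 was at 8.45, 9.03 and 10.8 CPM at PND 13, at 6.32, 7.92 and 14.2 CPM in PND 16 small, at 6.87, 6.39 and 8.92 CPM in PND 16 large and at 3.13, 3.11 and 2.46 CPM at PND 40. The PND 40 pools were below all 9 others. Cdh8 fell by 1.35 (log2, SE 0.28, adjusted p = 0.0133) at PND 40 vs. PND 16 large and by 1.70 (SE 0.28, adjusted p = 0.000653) at PND 40 vs. PND 13, and the latter held when any 1 pool was left out. In competent vs. non-competent oocytes it fell by 0.88 (log2, SE 0.31, adjusted p = 0.0436). Against PND 16 large the call was lost without PND 16 large replicate 3 or PND 40 replicate 3, with log2 values of -1.46 to -1.20 over the 6 fits. Cdh10 fell in competent vs. non-competent oocytes by 2.12 (log2, SE 0.70, adjusted p = 0.032), but at 0 to 0.409 CPM against 0.356 to 1.53 CPM this rests on 31 counts over the competent and 119 over the non-competent pools. The remaining named cadherins were not called in any comparison. Cdh4, or R-cadherin, ranged from 24.8 to 37.4 CPM with a log2 fold change of 0.25 in competent vs. non-competent oocytes (SE 0.09, adjusted p = 0.0427), under 1.5-fold. Cdh24 ranged from 16.7 to 30.4 CPM, Cdh23 from 3.93 to 13.1 CPM, Cdh20 from 4.16 to 15.7 CPM and Cdh19 from 0.391 to 7.26 CPM. Cdh24 was at 24.8, 30.4 and 28.3 CPM in PND 16 large and at 16.7, 19.0 and 20.7 CPM at PND 40, which did not overlap (log2 fold change -0.56, SE 0.16, adjusted p = 0.0566).

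**Figure D3:**
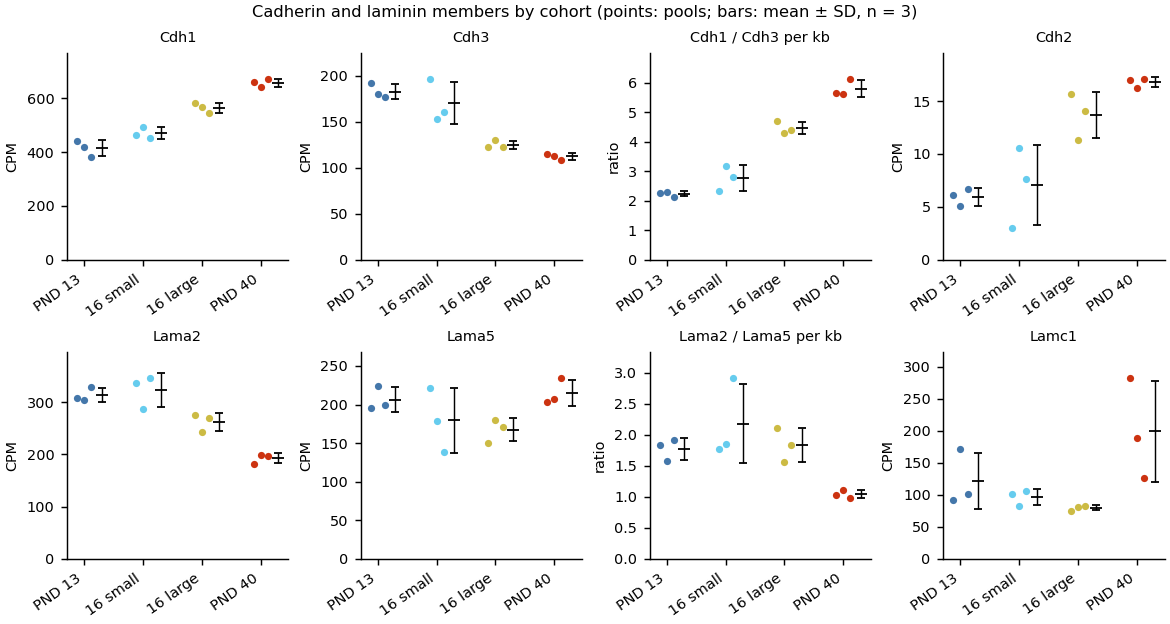
Levels in CPM of Cdh1, Cdh3, Cdh2, Lama2, Lama5 and Lamc1, and ratios per kb of 2 pairs, by cohort. Points are pools, bars give mean ± SD (n = 3), and the vertical axes start at 0. Cdh1 and Cdh2 lie higher and Cdh3 lower in the competent cohorts, the Cdh1 to Cdh3 ratio goes from a mean of 2.24 at PND 13 to 5.79 at PND 40, and the Lama2 to Lama5 ratio is lowest at PND 40.

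The laminin chains called lower were the beta chains Lamb2 and Lamb3 in competent vs. non-competent oocytes and Lama2 and Lamb2 at PND 40 vs. PND 13, and the change of the abundant Lamb1 was under 1.5-fold. Lamb1 was higher in every competent pool (2446 to 3215 CPM) than in any non-competent pool (2137 to 2403 CPM), with a log2 fold change of 0.27 (SE 0.07, adjusted p = 0.00909) that is under 1.5-fold. Lama2, the alpha chain of muscle and nerve laminins, was at 307, 304 and 329.8 CPM at PND 13, at 338, 286 and 346 CPM in PND 16 small, at 275, 243 and 270.3 CPM in PND 16 large and at 181, 198 and 198 CPM at PND 40. It stood lowest in the 3 PND 40 pools and fell by 0.71 at PND 40 vs. PND 13 (log2, SE 0.08, adjusted p = 6.08e-05). In competent vs. non-competent oocytes the groups did not overlap and its log2 fold change was -0.49 (SE 0.10, adjusted p = 0.00266), under 1.5-fold. Lama5, the alpha chain of most adult basement membranes, was at 195, 224 and 199 CPM at PND 13 and at 204, 207 and 234 CPM at PND 40, which overlapped (log2 fold change 0.06, SE 0.14, adjusted p = 0.774). The ratio of Lama2 to Lama5 per kb was accordingly 0.980 to 1.11 at PND 40 and 1.57 to 2.91 in the other 9 pools.

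Lamc1 was the single member called higher at PND 40 vs. PND 16 large. Its pools were at 75.2, 81.2 and 82.8 CPM in PND 16 large and at 282, 189 and 126 CPM at PND 40, with 91.5, 171 and 102 CPM at PND 13 and 100.5, 83.1 and 106 CPM in PND 16 small. The PND 40 pools lay above the PND 16 large pools but differed widely among themselves, and the lowest of them was below PND 13 replicate 2. The rise was 1.32 on the log2 scale (SE 0.30, adjusted p = 0.0315), and it was lost without any of the PND 16 large replicates or without PND 40 replicate 1 or 2, with log2 values of 0.98 to 1.56. Against PND 13 the log2 fold change of Lamc1 was 0.71 (SE 0.30, adjusted p = 0.0943). Lamb2, the beta chain of synaptic and kidney laminins, was at 9.60, 3.44 and 14.9 CPM at PND 13, at 4.13, 5.26 and 2.85 CPM in PND 16 small and at 2.40 to 3.74 CPM in the 6 competent pools. It fell by 1.12 in competent vs. non-competent oocytes (log2, SE 0.36, adjusted p = 0.0294) and by 1.59 at PND 40 vs. PND 13 (SE 0.42, adjusted p = 0.0116). Its 3 highest values were those of the 3 pools with high granulosa markers, and without these pools the log2 fold changes were -0.16 and -0.15 (adjusted p = 0.681 and 0.848). Lamb3, a chain of epithelial laminin, had 14, 8 and 25 counts at PND 13, 0, 0 and 11 in PND 16 small, none in PND 16 large and 1, 3 and 0 at PND 40, so that it was called lower in competent oocytes on 4 counts against 58 (adjusted p = 0.0213), and the call was lost without PND 13 replicate 3, with a fitted log2 value of -3.35. Lama4, Lama1 and Lama3 were not called in competent vs. non-competent oocytes. Lama4 was at 15.4 to 33.8 CPM, Lama1 at 12.1 to 50.2 CPM and Lama3 at 2.91 to 7.71 CPM.

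Among integrin alpha chains Itga9 and Itga8 were called higher and Itgav lower. Itga9, which pairs with the beta 1 chain and binds tenascin and other matrix ligands, was at 152, 120.1 and 117 CPM at PND 13, at 104, 113 and 114 CPM in PND 16 small, at 163, 181 and 129 CPM in PND 16 large and at 214, 225 and 227 CPM at PND 40. The PND 40 pools were above all others, while the PND 16 large pools overlapped PND 13 through its replicate 1. Itga9 rose in competent vs. non-competent oocytes by 0.66 (log2, SE 0.13, adjusted p = 0.00198) and at PND 40 vs. PND 13 by 0.78 (SE 0.12, adjusted p = 0.000371), and both calls held when any 1 pool was left out. Itga8, another partner of the beta 1 chain, was at 29.8, 25.9 and 19.3 CPM at PND 13 and at 50.8, 40.9 and 35.2 CPM at PND 40, which did not overlap. It rose by 0.76 (log2, SE 0.17, adjusted p = 0.00402), and 6.4% of its exon length overlaps another gene. Itgav, the alpha chain of fibronectin and vitronectin receptors, was at 55.5, 31.0 and 53.8 CPM at PND 13, at 34.5, 62.2 and 42.2 CPM in PND 16 small, at 29.1, 31.6 and 32.6 CPM in PND 16 large and at 21.8, 27.0 and 28.3 CPM at PND 40. It fell by 0.71 in competent vs. non-competent oocytes (log2, SE 0.16, adjusted p = 0.00463) and by 0.86 at PND 40 vs. PND 13 (SE 0.23, adjusted p = 0.0142). Its 3 highest pools were again the 3 with high granulosa markers, and without them the log2 fold changes were -0.33 and -0.27 (adjusted p = 0.126 and 0.358).

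Itga6, the most abundant integrin chain, was not called in any comparison. Its pools were at 385, 446 and 361 CPM at PND 13, at 464, 458 and 330.5 CPM in PND 16 small, at 356, 382 and 354 CPM in PND 16 large and at 449, 443 and 463 CPM at PND 40. No integrin beta chain was called by edgeR in any of the 5 comparisons, with 1 of 6 tested at an unadjusted p under 0.05 in competent vs. non-competent oocytes and at most 3 elsewhere, whereas DESeq2 called Itgb4, which is under 1 CPM, higher in competent oocytes and none in the other comparisons. Itgb1 ranged from 105 to 143 CPM with a log2 fold change of -0.16 in competent vs. non-competent oocytes (SE 0.08, adjusted p = 0.141). Itgb3, a beta chain that can pair with Itgav, ranged from 61.4 to 97.4 CPM (log2 fold change 0.05, SE 0.12, adjusted p = 0.789). Itgb5 ranged from 5.52 to 15.4 CPM and Itgb6 from 0.409 to 3.50 CPM. Of the low alpha and beta chains, Itga5, the fibronectin receptor, lay at 1.48 to 5.49 CPM, and the leukocyte chains Itgal and Itgb2 at 0.190 to 2.87 and 0 to 2.31 CPM.

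The collagens called in competent vs. non-competent oocytes and at PND 40 vs. PND 13 were lower, in shares near those of all genes. Of 36 collagen chains tested, 6 were called in the first comparison (16.7%, beside 15.0% of all genes, 11.2% lower) and 5 in the second (13.9%, beside 18.9% of all genes, 12.6% lower). By DESeq2 6 and 7 were called lower and none higher, and at an unadjusted p under 0.05 the edgeR fit had 9 in each, in either direction. The median log2 fold changes of the tested collagens were -0.32 and -0.61, beside -0.0046 and 0.0044 for all genes. Col22a1, a collagen of tissue junctions such as those of muscle and tendon, was at 19.2, 23.4 and 24.9 CPM at PND 13, at 27.1, 16.8 and 18.4 CPM in PND 16 small, at 14.5, 12.2 and 12.9 CPM in PND 16 large and at 10.04, 8.52 and 7.06 CPM at PND 40. Competent and non-competent pools did not overlap, and the PND 40 pools were the 3 lowest. Col22a1 fell by 0.99 in competent vs. non-competent oocytes (log2, SE 0.18, adjusted p = 0.00094) and by 1.40 at PND 40 vs. PND 13 (SE 0.20, adjusted p = 0.0002), and both calls held when any 1 pool was left out. Col25a1, a membrane-spanning collagen, was at 75.8, 71.5 and 80.2 CPM at PND 13, at 73.8, 56.1 and 88.8 CPM in PND 16 small, at 60.9, 52.1 and 51.4 CPM in PND 16 large and at 42.2, 40.8 and 42.8 CPM at PND 40. It fell by 0.62 (log2, SE 0.12, adjusted p = 0.00143) and by 0.86 (SE 0.14, adjusted p = 0.000486) in the same 2 comparisons. The smaller of these changes is close to the 1.5-fold limit, and it went under the limit without any PND 40 pool or PND 16 small replicate 3, with log2 values of -0.71 to -0.57 over the 12 fits.

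The collagen VI chains differed in their values. Col6a4 was at 45.6, 44.4 and 50.4 CPM at PND 13, at 50.8, 44.0 and 53.5 CPM in PND 16 small, at 30.6, 32.8 and 33.0 CPM in PND 16 large and at 26.6, 25.6 and 38.7 CPM at PND 40. All competent pools were below all non-competent pools, and Col6a4 fell by 0.62 in competent vs. non-competent oocytes (log2, SE 0.10, adjusted p = 0.000564), with 2 of 12 fits without 1 pool under the 1.5-fold limit, those without PND 40 replicate 1 or 2 (log2 -0.69 to -0.57 over the 12). At PND 40 vs. PND 13 it fell by 0.63 (log2, SE 0.15, adjusted p = 0.00535), a call lost without PND 13 replicate 3 or PND 40 replicate 1 or 2, with log2 values of -0.84 to -0.52. Col6a6, the most abundant collagen, was at 217 to 286 CPM in non-competent and at 169 to 235 CPM in competent pools (log2 fold change -0.27, SE 0.09, adjusted p = 0.0258), under 1.5-fold. Col6a5 lay at 57.5 to 143 CPM and Col6a3 at 33.7 to 67.1 CPM, neither of them called. Whether the change of Col6a4 differed from that of Col6a5 or Col6a6 was not tested.

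Collagen IV genes lie head to head in pairs on 3 chromosomes, and in 1 of the pairs the counts of the members were far apart. Col4a1 and Col4a2, the common chains of basement membranes, have spans that overlap by 85 bp on chromosome 8. Col4a1 was at 19.4 to 32.9 CPM and Col4a2 at 12.8 to 23.1 CPM, and the Col4a1 level per kb was 1.01 to 1.95 times that of Col4a2. Col4a3 and Col4a4, chains of the mature kidney and eye basement membranes, have spans that overlap by 114 bp on chromosome 1, and the Col4a4 window holds both start sites. Here Col4a3 had 594 to 1317 counts per pool, 11609 in all, whereas Col4a4 had 0 to 21 counts per pool, 50 in all. Col4a3 was at 28.2 to 54.0 CPM with no call in any comparison, and 3.2% of its exon length overlaps another gene. The third pair, Col4a5 and Col4a6, is separated by 1274 bp on the X chromosome. Col4a5 was at 6.78, 3.40 and 10.6 CPM at PND 13, at 2.58, 4.55 and 6.11 CPM in PND 16 small, at 2.496, 4.46 and 2.91 CPM in PND 16 large and at 0.772, 2.87 and 1.29 CPM at PND 40. It fell by 1.20 in competent vs. non-competent oocytes (log2, SE 0.41, adjusted p = 0.0358) and by 2.07 at PND 40 vs. PND 13 (SE 0.52, adjusted p = 0.00866), and without the 3 pools with high granulosa markers the values were -0.69 and -1.04 (adjusted p = 0.325 in both). Col4a6 lay at 0.243 to 3.60 CPM.

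Col18a1, Col20a1 and Col11a2 were called at low levels. Col18a1, the endostatin precursor of basement membranes, was at 12.7, 1.80 and 22.5 CPM at PND 13, at 0.826, 3.37 and 3.08 CPM in PND 16 small, at 0, 2.05 and 0.398 CPM in PND 16 large and at 0.686, 0.677 and 2.17 CPM at PND 40. It fell by 2.87 in competent vs. non-competent oocytes (log2, SE 0.92, adjusted p = 0.0321), but the 2 PND 13 pools that stand out are among those with high granulosa markers, and without the 3 pools its log2 value was -0.91 (adjusted p = 0.499). Col20a1 was at 1.09 to 2.55 CPM in non-competent and 0.367 to 1.19 CPM in competent pools and fell by 1.29 (log2, SE 0.36, adjusted p = 0.0147), with -0.997 and an adjusted p of 0.158 without the 3 pools. Col11a2, a cartilage collagen, fell at PND 40 vs. PND 13 by 1.08 (log2, SE 0.38, adjusted p = 0.0445), from 1.95 to 2.37 CPM to 0.858 to 1.08 CPM, a call that was lost without any 1 of the 6 pools (log2 -1.16 to -0.98). Col9a2 is described with the steps at PND 16. The type I chains Col1a1 and Col1a2, the main collagens of stroma, were not called, but 2 pools stood apart: Col1a1 was at 11.03 CPM in PND 16 small replicate 3 and at 17.8 CPM in PND 16 large replicate 2, against 0.836 to 3.65 CPM in the other 10. Those 2 pools also held the highest values of Col1a2 (9.19 and 14.2 CPM), Col3a1 (6.76 and 8.44 CPM) and Col6a1 (4.15 and 3.20 CPM), and, from the theca and stroma list, of Dcn (1.30 and 0.947 CPM), Acta2 (2.67 and 2.09 CPM) and Pdgfra (2.43 and 2.84 CPM). The rest of that list did not set both pools apart. Lum was at 0 in both, and Ptch1 was at 16.2 and 7.06 CPM against 28.4 CPM in PND 13 replicate 3. The whole list summed to 282 and 203 CPM in them, within a range of 175 to 282 CPM over all pools. Among the collagens not called, Col9a3 lay at 14.5 to 25.6 CPM, Col13a1 at 6.71 to 15.7 CPM, Col19a1 at 2.72 to 13.2 CPM, Col24a1 at 4.18 to 8.71 CPM, Col28a1 at 1.96 to 4.91 CPM and Col12a1 at 0.292 to 3.80 CPM.

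The steps at PND 16 moved few members. In PND 16 small vs. PND 13, cohorts that are both non-competent, 2 of 86 members were called (2.33%, beside 0.373% of all genes), both lower. Col9a2, a chain of the fibril-associated collagen IX, was at 5.92, 3.83 and 7.61 CPM at PND 13, at 0.340, 1.19 and 1.66 CPM in PND 16 small, at 5.11, 4.18 and 3.14 CPM in PND 16 large and at 2.02, 2.79 and 4.34 CPM at PND 40. The 3 PND 16 small pools were below all others. Col9a2 fell by 2.45 (log2, SE 0.49, adjusted p = 0.0362) and in PND 16 large vs. PND 16 small it rose by 1.97 (SE 0.48, adjusted p = 0.0198), both against the same PND 16 small pools. Itga10, a collagen-binding integrin, was at 13.0, 13.2 and 20.3 CPM at PND 13 and at 9.09, 7.63 and 8.19 CPM in PND 16 small, and fell by 0.90 (log2, SE 0.19, adjusted p = 0.0434). Of its exon length 34.5% overlaps the gene Gm42957, and the strand setting of the counting is not given in the sources used here. The fall of Col9a2 was lost without PND 13 replicate 1 or 3 or PND 16 small replicate 2 or 3 (log2 -2.93 to -2.03), and that of Itga10 without PND 13 replicate 3 or PND 16 small replicate 2 or 3 (log2 -1.03 to -0.66). In PND 16 large vs. PND 16 small 3 of 86 members were called (3.49%, beside 6.19% of all genes, 1.43% higher and 4.76% lower): Col9a2 higher, and Col22a1 (log2 -0.65, SE 0.19, adjusted p = 0.0419) and Col6a4 (log2 -0.62, SE 0.15, adjusted p = 0.0169) lower. Col9a2 lost this call without PND 16 large replicate 1 or 2 (log2 1.55 to 2.43), Col6a4 also without PND 16 small replicate 3 (log2 -0.69 to -0.56), and Col22a1 without any PND 16 large pool or PND 16 small replicate 1 or 3 (log2 -0.78 to -0.41). In PND 40 vs. PND 16 large 2 of 86 members were called (2.33%, beside 3.66% of all genes), Lamc1 higher and Cdh8 lower. Between these cohorts 40 of the 86 members had pools that did not overlap (46.5%, beside 39.3% of all genes).

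Among the 5 genes that carry a family name without being a member of it, 2 were called higher in competent vs. non-competent oocytes. Itgb3bp, which encodes the centromere protein CENP-R, was at 0.573 to 3.01 CPM in non-competent and 1.75 to 3.64 CPM in competent pools (log2 0.95, SE 0.34, adjusted p = 0.0485), a call that held only without PND 13 replicate 2 or PND 16 large replicate 3 among the 12 fits that left out 1 pool (log2 0.78 to 1.26). Itgb2l, an integrin beta 2-like gene, had 0, 1, 1, 5, 0 and 0 counts in the non-competent pools and 30, 3, 29, 0, 11 and 5 in the competent pools (adjusted p = 0.0359), a call lost without any PND 13 pool, PND 16 small replicate 2 or 3, PND 16 large replicate 1 or 3 or PND 40 replicate 2 (log2 2.69 to 4.50). Col4a3bp, the ceramide transfer protein, was at 159.9 to 244 CPM, and Itgb1bp1, a cytoplasmic binding partner of the beta 1 chain, at 10.9 to 37.5 CPM, of whose exon length 14.8% overlaps Asap2; neither was called. In all, 28 members were called in at least 1 of the 5 comparisons and 66 met the rule for being named. The 43 others had means of 0 to 0.975 CPM and at most 3.41 CPM in a single pool, and 20 of them passed the filter on low counts.

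**Figure D4:**
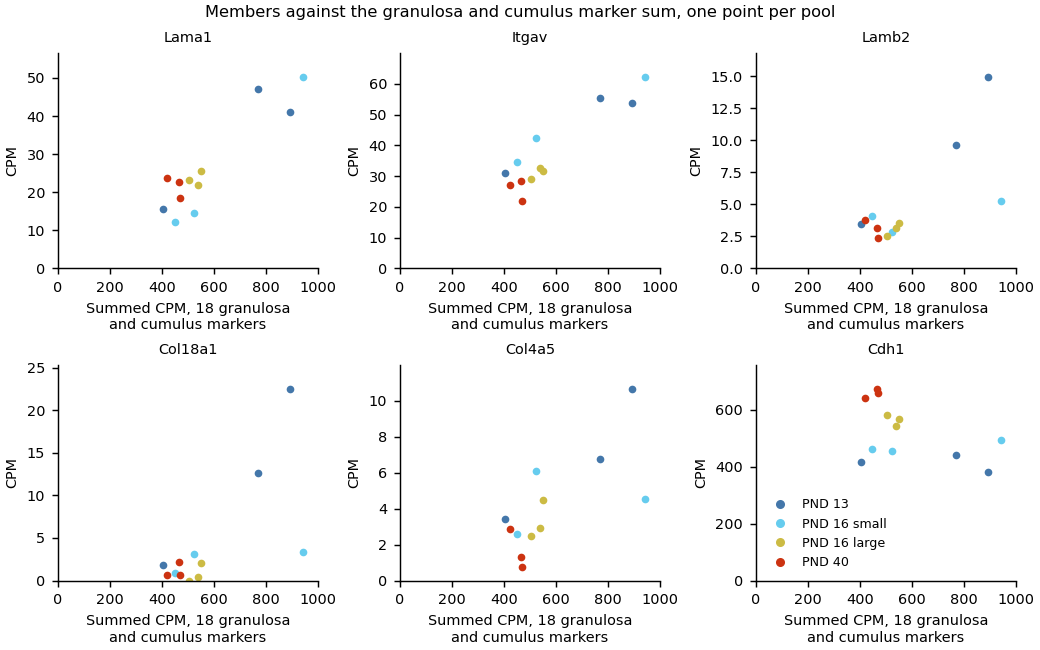
CPM of 6 members against the summed CPM of 18 granulosa and cumulus markers; each point is 1 pool, coloured by cohort, and the axes start at 0. Lama1, Itgav and Lamb2 are highest in the 3 pools with sums of 769 to 942 CPM, whereas Cdh1 is highest at PND 40, where the sums are 421 to 469 CPM. Outside those 3 pools the sum is carried largely by Serpine2 and does not order the pools by granulosa RNA.

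In all 3 pools with high granulosa markers 7 of the 86 members tested were higher than in each of the other 9 pools (8.14%, beside 4.44% of all genes tested): Lama1 (41.1 to 50.2 CPM against 12.1 to 25.7 CPM), Itgav (53.8 to 62.2 against 21.8 to 42.2 CPM), Itga5 (4.08 to 5.49 against 1.48 to 3.75 CPM), Lamb2 (5.26 to 14.9 against 2.40 to 4.13 CPM), Col18a1 (3.37 to 22.5 against 0 to 3.08 CPM), Itga2 (1.72 to 3.41 against 0 to 1.25 CPM) and Itga1 (0.860 to 2.56 against 0.117 to 0.632 CPM). Leaving these pools out was chosen after the values were seen. All 3 pools are non-competent, and 3 of the 18 granulosa markers were called lower in competent oocytes. Without the 3 pools 8 members were called in competent vs. non-competent oocytes, and Cdh13, Cdh2 and Itga9 (higher) and Col22a1, Col25a1 and Col6a4 (lower) kept their calls, with log2 fold changes of 3.05, 1.56, 0.75, -1.07, -0.68 and -0.66. The other 11 calls were lost, and all 11 kept their direction. Without the 3 pools the log2 fold change was -0.92 for Cdh8 (-0.88 with 12 pools), 0.65 for Cdh17 (0.70), -1.73 for Cdh10 (-2.12), 0.72 for Itgb3bp (0.95), 2.39 for Itgb2l (3.14) and -3.32 for Lamb3 (-3.81). It was further from its value with 12 pools, as a share of that value, for Lamb2, Itgav, Col18a1 and Col4a5, given above. At PND 40 vs. PND 13, where the cohort of PND 13 is then 1 pool and is assumed to vary like the others, 11 members were called, 10 of them among the 18.

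**Figure D5:**
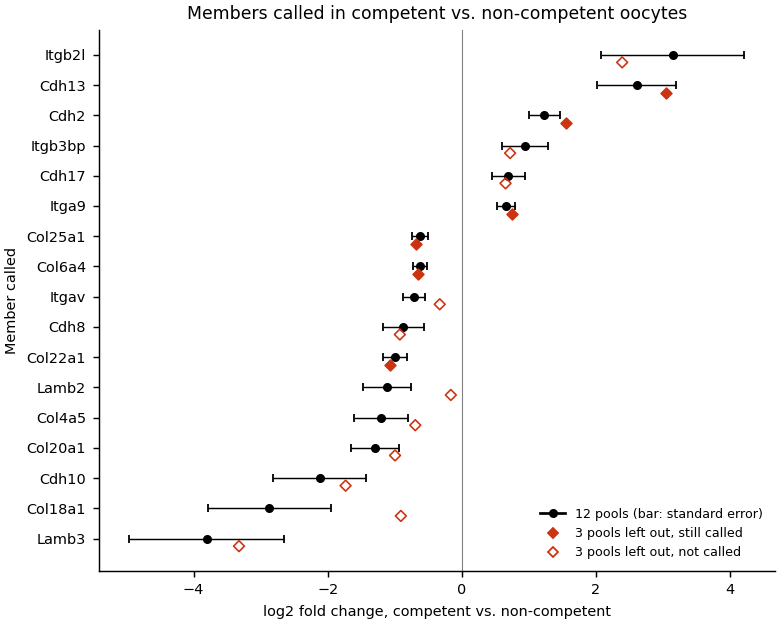
Log2 fold change in competent vs. non-competent oocytes of the 17 members called, with 12 pools (black points, bars give the standard error) and with the 3 pools high in granulosa markers left out (diamonds, filled where still called). The 6 filled diamonds are Cdh13, Cdh2, Itga9, Col25a1, Col6a4 and Col22a1; Lamb3 and Itgb2l rest on few counts, 4 and 7 in their lower group.

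Many of the calls were also lost when 1 pool was left out. Without any 1 of the 12 pools in turn, 6 of the 17 calls in competent vs. non-competent oocytes held in every fit, those of Cdh13, Cdh2, Itga9, Itgav, Col20a1 and Col22a1. Cdh8 lost its call without any PND 13 or PND 40 pool or PND 16 small replicate 3 (log2 -1.11 to -0.73 over the 12 fits), and Cdh17 without any competent pool, PND 13 replicate 1 or 3 or PND 16 small replicate 1 (log2 0.55 to 0.84). Col4a5 lost its call without PND 13 replicate 1 or 3, PND 16 small replicate 3, PND 16 large replicate 1 or any PND 40 pool (log2 -1.46 to -0.92). Col18a1 and Cdh10 did so without PND 13 replicate 1 or 3, PND 16 large replicate 3 or PND 40 replicate 1 or 2 (log2 -3.26 to -2.11 and -2.44 to -1.87), and Lamb2 without PND 13 replicate 1 or 3, PND 16 large replicate 1 or PND 40 replicate 1 or 3 (log2 -1.29 to -0.71). At PND 40 vs. PND 13, 10 of the 18 calls held in all 6 fits, those of Cdh1, Cdh2, Cdh3, Cdh8, Col22a1, Col25a1, Col4a5, Itga8, Itga9 and Lama2. Itgav lost that call without PND 13 replicate 1 or 3 or PND 40 replicate 1 (log2 -1.11 to -0.72), and Lamb2 without PND 13 replicate 3 or PND 40 replicate 1 (log2 -2.01 to -1.06).

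Partner genes of the 4 families were taken from fixed lists and counted, beside 15.0% of all genes called in competent vs. non-competent oocytes and 3.66% at PND 40 vs. PND 16 large. Of 15 cadherin partners, all tested, 1 was called lower in competent vs. non-competent oocytes and 2 were called higher at PND 40 vs. PND 16 large. The 1 called lower was Pkp2, at a mean of 9.39 CPM (log2 -0.65, SE 0.17, adjusted p = 0.00891). Under 1.5-fold, Ctnna1, Ctnnb1, Ctnnd1 and Jup were higher in competent oocytes (log2 0.36 to 0.49, adjusted p 0.000531 to 0.0187). Arvcf was lower, also under 1.5-fold (log2 -0.36, SE 0.10, adjusted p = 0.012). p120-catenin (Ctnnd1), which holds cadherins at the membrane, rose at PND 40 from 248 ± 27.6 to 382 ± 7.73 CPM (SD, n = 3; log2 0.62, SE 0.11, adjusted p = 0.00524). Of 23 integrin adaptors tested, 2 were called higher and 3 lower in competent vs. non-competent oocytes. The 2 higher were tensin 1 (Tns1, log2 1.62, SE 0.45, adjusted p = 0.0144) and Parvb (log2 1.75, SE 0.39, adjusted p = 0.00399), at means of 2.67 and 1.86 CPM. The 3 were talin 1 (Tln1; log2 -0.64, SE 0.12, adjusted p = 0.000988), talin 2 (Tln2; log2 -0.70, SE 0.10, adjusted p = 0.000163) and tensin 3 (Tns3; log2 -0.65, SE 0.20, adjusted p = 0.024), proteins that connect integrin tails to actin. At PND 40 vs. PND 16 large 1 adaptor was called higher and 1 lower, the latter being the integrin-linked kinase Ilk, from 10.9 ± 0.638 to 6.59 ± 0.300 CPM (SD, n = 3; log2 -0.73, SE 0.17, adjusted p = 0.0198). Of 16 other basement membrane and matrix genes tested, 3 were called lower in competent vs. non-competent oocytes, among them agrin (Agrn), a heparan sulfate proteoglycan, from 22.4 ± 6.74 to 11.6 ± 1.70 CPM (SD, n = 6; log2 -0.95, SE 0.19, adjusted p = 0.00167). At PND 40 vs. PND 16 large 16 of these 16 genes did not pass the test. Of 21 genes of collagen processing tested, 1 was called higher and 2 lower in competent vs. non-competent oocytes. The one higher was P4ha1, the catalytic chain of prolyl 4-hydroxylase, which rose from 73.5 ± 9.42 to 112 ± 17.1 CPM (SD, n = 6; log2 0.61, SE 0.11, adjusted p = 0.000912). The lysyl hydroxylase Plod1 was called higher at PND 40 vs. PND 16 large, from 8.73 ± 0.446 to 15.7 ± 1.14 CPM (SD, n = 3; log2 0.85, SE 0.18, adjusted p = 0.0151).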

How the data were processed

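Rows whose symbol matched the family names were taken from the table of all genes; the members, the marker and partner lists and the tests were chosen with earlier results of these data known. Directional libraries were made from RNA of the pools after depletion of ribosomal RNA, and sequenced on a HiSeq. The authors deposited raw counts, reads per gene and pool without normalization, processed on the Rosalind platform; their processing notes name FastQC, STAR, HTSeq, DESeq2, DESeq, HOMER and the build mm10, while versions and the strand setting are not given in the sources used here. A second deposited table, log2 values of the same counts, was not used. Cohorts and replicate numbers came from the sample labels. The study describes oocytes of 3 mice per cohort made into 3 independent pools; whether a pool holds oocytes of a single mouse is not spelled out, and p-values measure the spread between these pools. By their counts no 2 pools of a cohort agreed within sampling noise (chi-square per gene 9.68 to 54.4). Reads carry no molecular identifiers.

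Analyses used R 4.3.3 with edgeR 4.0.16, limma 3.58.1 and DESeq2 1.42.0, and Python 3.11.15 with matplotlib 3.10.9. Of 24562 genes, 13943 passed filterByExpr (minimum count 10, by cohort). Pools were scaled by TMM (factors 0.955 to 1.07). A robust quasi-likelihood model of 4 cohorts gave the pairwise contrasts, and a model of 2 groups of 6 pools gave competent vs. non-competent oocytes; p-values are two-sided and adjusted by Benjamini-Hochberg over all genes tested. The standard error is the log2 fold change over the square root of F. Both call criteria (adjusted p 0.05, 1.5-fold) are those the study set, whose DESeq2 test is an alternative here. The steps were tested on simulated data. Named members had a mean of at least 1 CPM or a call in any of the 5 comparisons, and 1 that met this rule is not reported here. Itgad, Cdh5, Col4a4, Col6a2, Itga1, Itga2 and Itgb4 fall outside this rule and were named after their values were seen. Partner genes were named where called in competent vs. non-competent oocytes or PND 40 vs. PND 16 large with at least 10 CPM. Pkp2, Tns1 and Parvb are under this level, and Ctnna1, Ctnnb1, Jup and Arvcf were not called there. All of these were named after their values were seen. Exon lengths and overlaps are those of GENCODE M21 on GRCm38, the same assembly as mm10; gene spans and promoter windows are RefSeq's on GRCm38.p6. Alternatives were DESeq2, RLE factors, total counts, no filter, a minimum count of 30, no fold criterion, other samples in the fit, the replicate number as a block, and each pool left out; leaving out 3 pools with high granulosa markers or 2 with high type I collagen was added after seeing the data.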

Additional observations from a re-analysis of the deposited data

Results flagged for a closer look

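Each group of 6 pools was examined for the 17 members called in competent vs. non-competent oocytes, 34 groups in all, for a pool whose gap to its neighbour as a share of the group's range exceeded Dixon's critical value, and 4 pools did; chance gives about 1 in 20 groups. Cdh13 was at 5.03 CPM in PND 40 replicate 3, a gap of 0.854 of the range, with the next competent pool at 1.71 CPM. Itga9 was at 152 CPM in PND 13 replicate 1, a gap of 0.672 of the range, with the next non-competent pool at 120.1 CPM. Itgb2l was at 0.243 CPM in PND 16 small replicate 1, a gap of 0.832 of the range, which is 5 counts. Lamb3 was at 0.119 CPM in PND 40 replicate 2, a gap of 0.641 of the range, which is 3 counts.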

How the results depend on the processing

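Over all settings, none of the entries for single called members reversed direction, 592 kept the call and 178 lost it. The 592 include the setting without a fold criterion, which reuses the main fit and so keeps every call by construction. Members that a filter removed were not counted as lost. Without each pool in turn, the number of members called ranged from 8 (without PND 13 replicate 3) to 19 (without PND 13 replicate 2) in competent vs. non-competent oocytes, from 11 (without PND 13 replicate 3) to 25 (without PND 13 replicate 2) at PND 40 vs. PND 13, from 0 (without PND 13 replicate 3) to 6 (without PND 16 small replicate 1) in PND 16 small vs. PND 13, from 0 (without PND 16 large replicate 1) to 4 in PND 16 large vs. PND 16 small and from 0 (without PND 16 large replicate 3) to 2 at PND 40 vs. PND 16 large. Leaving out the 3 pools with high granulosa markers moved the counts from 17 to 8, from 18 to 11, from 2 to 0 and from 3 to 6 in the first 4 of these comparisons. Leaving out the 2 pools with high type I collagen left 0 called in both steps of PND 16 small, from PND 13 and to PND 16 large, with 9 and 15 members at an unadjusted p under 0.05. In PND 16 small vs. PND 13, DESeq2 called 4 members, while edgeR with total counts, or with only the pools compared, called 0 (11 and 9 at an unadjusted p under 0.05); with total counts all genes had a median of -0.12 (log2). Dropping the fold criterion gave 7 members in PND 16 large vs. PND 16 small and 4 at PND 40 vs. PND 16 large. With only the pools compared these were 1 and 6, and with no filter PND 40 vs. PND 16 large had 1. The causes were not tested. The share of all genes called is not given here for these settings or for the replicate block. The counts are therefore not read as particular to the members. The other counts stayed within 1.5 times, with directions as reported.

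Replicate numbers are not stated to pair pools, and same-numbered pools did not deviate together (correlations of -0.47 to 0.074). With the replicate block 12 members were called in competent vs. non-competent oocytes, 16 at PND 40 vs. PND 13, 0 in PND 16 small vs. PND 13 (11 at an unadjusted p under 0.05), 2 in PND 16 large vs. PND 16 small and 1 at PND 40 vs. PND 16 large. With 3 pools a cohort, members near 1 CPM rest on few counts, and 3 counts are worth 0.110 to 0.178 CPM.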
